A study of Homo sapiens with 6 samples.

Results

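Human chromosome 19 carries most of its zinc finger genes in tandem clusters, and the genes described here are those with a symbol made of ZNF and a number. They were chosen by name, position and level: protein-coding in GENCODE 29 on GRCh38 chromosome 19, with a mean of at least 10 normalised counts over the libraries. Of 240 such annotated genes, 210 were members, out of 14456 genes in the deposited table, and the other 30 were not analysed here. No row of the table that was a ZNF gene of chromosome 19 fell below the minimum, so there was none just outside it. The members nearest to it were ZNF781, with a mean of 11.4, and ZNF676, with a mean of 11.8. Expression of these genes in IPI-9119 treated cells was compared with expression in DMSO treated cells.

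The cells were C4-2, an androgen-independent prostate cancer line derived from LNCaP and described in the labels as epithelial-like, grown in RPMI with fetal bovine serum. In the treated group they received IPI-9119, an inhibitor of fatty acid synthase, at 100 nM for 6 days. In the control group they received DMSO, the solvent, at 0.1% for 6 days. Each group held 3 polyA-selected RNA libraries of this 1 line, and the labels name no genetic change in either group.

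Most ZNF proteins of this chromosome combine an array of C2H2 zinc fingers, which read DNA, with a KRAB domain near the amino terminus. KRAB binds TRIM28, which brings in the histone methyltransferase SETDB1, heterochromatin proteins and other silencing factors. Many KRAB zinc finger proteins silence retrotransposons, and the smaller group without KRAB includes regulators of ordinary promoters.

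Depth ran from 19090749 to 20422882 recovered reads in IPI-9119 libraries and from 21952620 to 23448035 in DMSO libraries. All 10 markers of prostate luminal cells were present, with a summed level of 151741 to 157314 normalised counts in IPI-9119 libraries and 258249 to 268892 in DMSO libraries. Of 13 markers of other cell types 4 were analysed here (COL1A2, SYP, VWF and COL1A1), with sums of 183 to 213 and 165 to 202 normalised counts in IPI-9119 and DMSO libraries. KLK3 made up the largest part of the luminal sum, with 61621 to 66131 in IPI-9119 libraries and 118177 to 125610 in DMSO libraries. Not all of the luminal markers were lower after IPI-9119: FOLH1 had 26002 to 27019 normalised counts in IPI-9119 libraries and 18942 to 19899 in DMSO libraries, and EPCAM overlapped, with 3552 to 4122 and 3291 to 3721 in IPI-9119 and DMSO libraries. The part of these differences in the ZNF values was not tested. The labels do not say whether replicates were separate cultures, so a p-value reflects library spread, possibly technical. They give no batch either, so treatment and any library batch cannot be told apart.

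The promoters of 5 members are shown first because they belong to the genes with the largest decreases among called members with a mean of at least 50, to the most abundant member and to members that rose. RefSeq promoters (GRCh38.p14) ran from 250 bases before to 50 after the RefSeq start of the gene, and 185 members had one. RefSeq starts can differ from the GENCODE gene positions given below. The ZNF146 window lies wholly inside its GENCODE gene, which starts at 36214602, and most of the ZNF865 window lies inside its gene. Capitals mark matches on either strand to the ETS motif CCGGAAG, the GC box GGGCGG or the CCAAT box CCAAT. ZNF865 lies at chr19:55605397-55605696 (plus strand), ZNF579 at chr19:55580799-55581098 (minus strand), ZNF146 at chr19:36214856-36215155 (plus strand), ZNF554 at chr19:2819618-2819917 (plus strand) and ZNF93 at chr19:19900696-19900995 (plus strand).
ZNF865: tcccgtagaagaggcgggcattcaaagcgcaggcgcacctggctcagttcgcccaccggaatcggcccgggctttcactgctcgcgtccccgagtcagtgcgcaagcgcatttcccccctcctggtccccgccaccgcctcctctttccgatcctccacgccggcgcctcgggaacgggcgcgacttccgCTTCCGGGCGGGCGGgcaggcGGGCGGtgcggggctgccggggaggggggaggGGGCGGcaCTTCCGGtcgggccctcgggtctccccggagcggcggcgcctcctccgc
ZNF579: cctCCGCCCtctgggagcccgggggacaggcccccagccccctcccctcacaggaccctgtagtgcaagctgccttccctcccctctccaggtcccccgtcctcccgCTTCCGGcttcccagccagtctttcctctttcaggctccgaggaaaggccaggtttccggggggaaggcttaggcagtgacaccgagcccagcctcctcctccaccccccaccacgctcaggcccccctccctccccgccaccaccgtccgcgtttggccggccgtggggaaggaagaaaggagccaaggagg
ZNF146: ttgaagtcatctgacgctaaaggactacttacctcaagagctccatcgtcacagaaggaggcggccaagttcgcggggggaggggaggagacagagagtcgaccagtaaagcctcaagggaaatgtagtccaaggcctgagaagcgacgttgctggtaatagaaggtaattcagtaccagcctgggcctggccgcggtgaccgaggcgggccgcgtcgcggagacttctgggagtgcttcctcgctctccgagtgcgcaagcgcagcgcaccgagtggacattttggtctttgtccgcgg
ZNF554: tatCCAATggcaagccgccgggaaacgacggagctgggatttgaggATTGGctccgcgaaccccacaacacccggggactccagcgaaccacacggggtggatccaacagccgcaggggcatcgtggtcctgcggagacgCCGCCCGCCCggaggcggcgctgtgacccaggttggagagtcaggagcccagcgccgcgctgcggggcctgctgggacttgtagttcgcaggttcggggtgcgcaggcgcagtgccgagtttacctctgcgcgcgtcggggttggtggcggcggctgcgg
ZNF93: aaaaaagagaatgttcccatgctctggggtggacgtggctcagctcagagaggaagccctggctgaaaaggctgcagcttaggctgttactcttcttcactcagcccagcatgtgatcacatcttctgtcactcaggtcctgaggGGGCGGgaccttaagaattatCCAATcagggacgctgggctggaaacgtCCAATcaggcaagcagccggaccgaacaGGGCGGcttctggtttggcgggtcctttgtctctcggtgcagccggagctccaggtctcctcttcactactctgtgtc
In the ZNF865 window 1 of the ETS matches shares letters with a GC box, and the ZNF146 window holds no match to any of the motifs searched. That ZNF146 window lies after the GENCODE start of the gene, so the sequence before that start was not searched.

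Across all 210 members, 91 fell and 15 rose after IPI-9119, and 104 did not pass the test (limma, Benjamini-Hochberg adjusted p under 0.05 over all genes). The 106 members that passed were 50.5% of the members, against 62.8% of all genes tested. Members that fell were 43.3% of the members, against 31.4% of all genes tested. Members that rose were 7.14%, against 31.3% of all genes. In bulk RNA, fewer cells of a type and less RNA per cell cannot be told apart. The median log2 fold change, IPI-9119 over DMSO, was -0.26 for members and 0.0017 for the 14437 genes tested. A value below 0 was found for 157 members, 74.8%, against 49.9% of all genes.

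Decreases were modest for most members. At least a 2-fold decrease past the test was found for 14 members, and no member rose that far (9.27% and 7.92% of all genes were at least 2-fold lower and higher). A further 38 members lay within 0.1 of 0 on the log2 scale. Groups did not overlap for 100 members that were lower and 18 that were higher after IPI-9119, while over all genes these shares were 33.9% and 34%. Together the members held 0.206%, 0.218% and 0.218% of the reads in IPI-9119 libraries and 0.254%, 0.267% and 0.259% in DMSO libraries. Every IPI-9119 library thus had a lower share than every DMSO library, 0.214 ± 0.00704% against 0.260 ± 0.00668% (SD, n = 3).

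A second fit removed trends with exonic length and GC content from each library. After it 119 members fell and 8 rose, with a median of -0.39 (34.1% and 30.7% of all genes fell and rose, with a median of -0.033). Of the 91 decreases 84 kept their call, and 7 of the 15 increases did. Another 35 members that had not passed became lower, and ZNF787 changed direction.

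Among members with a mean of at least 50 normalised counts, those with the largest decreases were ZNF865, ZNF579 and ZNF414, all without a KRAB match and with transcripts of 71.1%, 65.9% and 62.6% GC. ZNF865 (ENSG00000261221, chromosome 19, 55605405 to 55617269, plus strand) gave 9.5, 9.8 and 22.0 normalised counts in IPI-9119 libraries, against 119.8, 170.8 and 143.3 in DMSO libraries. The groups were far apart, and IPI-9119 replicate 3 was the highest of the treated libraries. Its log2 fold change was -3.39 (SE 0.29, limma adjusted p 2.02e-07). The length and GC correction gave -2.40. ZNF579 (ENSG00000218891, 55576770 to 55580845, minus strand), a neighbour in the same cluster, gave 26.4, 38.2 and 36.3 normalised counts in IPI-9119 libraries, against 182.3, 239.7 and 156.1 in DMSO libraries, a log2 fold difference of -2.48 (SE 0.20, limma adjusted p 1.09e-07). ZNF414 (ENSG00000133250, 8509678 to 8514164, minus strand) gave 36.9, 29.4 and 30.8 in IPI-9119 libraries, against 107.3, 156.6 and 136.8 in DMSO libraries, a log2 fold difference of -2.001 (SE 0.19, limma adjusted p 6.57e-07). No library of these genes crossed into the range of the other group, which was a condition for naming them here. The mean of at least 50 was taken over both groups, and every IPI-9119 library of these genes was below 50. ZNF628, ZNF296 and ZNF793 also fell, by log2 fold changes of -2.85, -1.72 and -1.66, but had means under 50. Of these, ZNF628 and ZNF296 were singled out after their values were seen.

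ZNF844, ZNF446, ZNF653, ZNF329 and ZNF570 followed among members with a mean of at least 50 over both groups. Their fold changes in the limma fit, IPI-9119 over DMSO, were 0.438, 0.454, 0.461, 0.464 and 0.480. ZNF653, which has been described as a repressor acting on the nuclear receptor SF-1, gave 49.5, 28.4 and 36.3 normalised counts in IPI-9119 libraries and 99.2, 73.6 and 74.4 in DMSO libraries, a log2 fold difference of -1.12 (SE 0.23, limma adjusted p 0.00069). Every IPI-9119 library of ZNF653 was below 50, so it reached the mean of 50 only through its DMSO libraries. ZNF446 gave 83.3, 87.3 and 84.7 in IPI-9119 libraries and 195.7, 188.7 and 181.9 in DMSO libraries, so replicates lay close together, with a log2 fold change of -1.14 (limma adjusted p 2.69e-06). Its exons overlap those of ZNF324 on the same strand and SLC27A5 on the other, and the strand setting of the counting was not given, so reads there could be split between genes. ZNF844, ZNF329 and ZNF570 had log2 fold changes of -1.19, -1.11 and -1.06. Groups that do not overlap were a condition for naming these genes too.

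**Figure D1:**
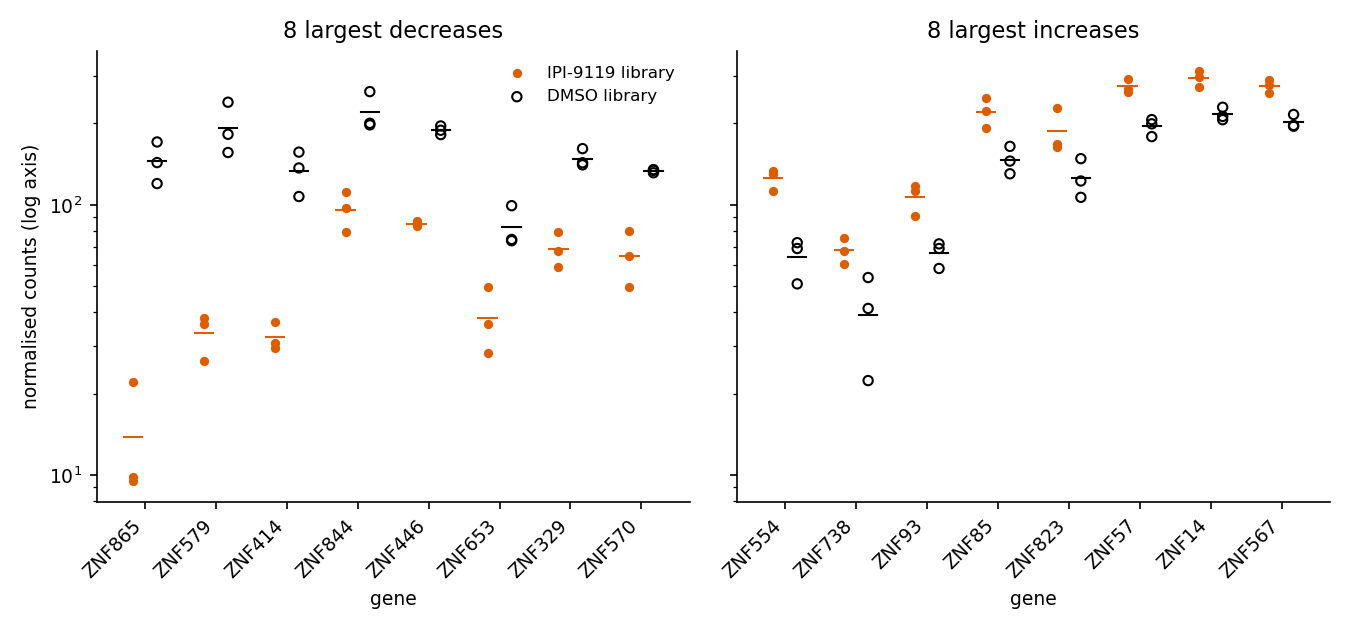
Normalised counts (log axis) of the 8 members with the largest decreases and the 8 with the largest increases among those past the test, with a mean of at least 50 and non-overlapping groups. Filled points are IPI-9119 libraries, open points DMSO libraries and short lines the mean of 3. The gap is widest for ZNF865 (log2 fold change -3.39) on the left, and on the right it is widest for ZNF554 (0.97).

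Increases were smaller. ZNF554 (ENSG00000172006, 2819874 to 2835773, plus strand) gave 112.8, 129.8 and 133.1 normalised counts in IPI-9119 libraries, against 72.4, 51.0 and 68.9 in DMSO libraries, a log2 fold difference of 0.97 (SE 0.17, limma adjusted p 0.000218). ZNF93 (ENSG00000184635, 19900913 to 19963464, plus strand), a KRAB protein known to silence LINE-1 retrotransposons, gave 117.0, 90.5 and 112.2 in IPI-9119 libraries, against 58.1, 68.9 and 71.6 in DMSO libraries, a log2 fold difference of 0.68 (SE 0.17, limma adjusted p 0.00302). Every treated library was above every control library for both genes, which was a condition for naming them among the largest increases. Both calls held without any 1 library and after the length and GC correction (0.84 and 0.48). ZNF85, ZNF823, ZNF57, ZNF14 and ZNF567 rose by log2 fold changes of 0.59, 0.56, 0.49, 0.44 and 0.44. Of these, ZNF823, ZNF14 and ZNF567 no longer passed after that correction (0.31, 0.17 and 0.18), and ZNF85 and ZNF57 passed with 0.30 and 0.29.

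ZNF738, whose longest annotated reading frame of 137 residues holds a KRAB match and no counted finger, gave 67.5, 75.3 and 60.5 normalised counts in IPI-9119 libraries and 22.3, 53.8 and 41.3 in DMSO libraries. Its log2 fold change was 0.86 (limma adjusted p 0.0143). It no longer passed when DMSO replicate 1, its lowest library, was left out (0.51, adjusted p 0.0656), nor without IPI-9119 replicate 2 (0.78, adjusted p 0.0551), nor with the length and GC correction (0.57, adjusted p 0.0787).

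The most abundant member per length was ZNF146, also called OZF, a protein made almost only of zinc fingers that is overexpressed in several carcinomas. It had 551 normalised counts per kb of exon, against a median of 34.1 per kb over the members, and ZNF524, ZNF358, ZNF428 and ZNF627 followed at 310, 251, 230 and 211 per kb. ZNF146 (ENSG00000167635, 36214602 to 36238774, plus strand) gave 1608.8, 1800.8 and 1846.6 normalised counts in IPI-9119 libraries, against 2803.0, 2928.8 and 2714.9 in DMSO libraries. The groups did not overlap, and the log2 fold change was -0.69 (SE 0.06, limma adjusted p 2.44e-07). Without ZNF146 the share of reads in the members was 0.198%, 0.209% and 0.209% in IPI-9119 libraries and 0.241%, 0.253% and 0.246% in DMSO libraries. The lower share thus did not rest on this gene.

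Members with a studied role mostly fell by less than 2-fold or did not pass. ZNF274, which brings SETDB1 to the ends of ZNF genes, gave 478.6, 520.3 and 523.5 normalised counts in IPI-9119 libraries and 715.0, 759.6 and 768.7 in DMSO libraries, a log2 fold difference of -0.56 (SE 0.074, limma adjusted p 1.38e-05). The imprinted ZNF331 gave 356.3, 426.5 and 406.9 in IPI-9119 libraries and 522.9, 567.1 and 578.6 in DMSO libraries, a log2 fold change of -0.49 (limma adjusted p 0.00026). ZNF304, a repressor that recruits the KRAB machinery to tumour suppressor promoters in colorectal cancer cells, fell by 0.34 on the log2 scale (adjusted p 0.00379). In these 3 genes every treated library was below every control library. The length and GC correction gave -0.28 for ZNF274, -0.38 for ZNF331 and -0.51 for ZNF304, all past the test, and quantile scaling gave -0.22 for ZNF304.

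ZNF444, an activator of a scavenger receptor promoter in endothelial cells, fell to 244.6, 200.7 and 255.2 normalised counts in IPI-9119 libraries, against 412.0, 440.6 and 425.2 in DMSO libraries (log2 fold change -0.87, adjusted p 6.04e-06). With the length and GC correction it was -0.38 (adjusted p 0.00481). ZNF558, a repressor of a mitophagy gene, ZNF431 and ZNF175, a repressor of HIV transcription in macrophages, fell by 0.54, 0.50 and 0.39 on the log2 scale (adjusted p 0.000194, 0.00708 and 0.00373). ZNF675, an inhibitor of TRAF6 signalling, rose by 0.27 (adjusted p 0.0229), which missed the threshold when DMSO replicate 1 (0.24, adjusted p 0.0777), DMSO replicate 3 (0.26, 0.0591), IPI-9119 replicate 1 (0.23, 0.0572) or replicate 3 (0.25, 0.0615) was left out, and with the length and GC correction (0.10).

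ZNF91, which silences SVA retrotransposons, gave 345.8, 341.4 and 332.1 normalised counts in IPI-9119 libraries and 382.6, 413.3 and 398.6 in DMSO libraries. The groups did not overlap, but the difference was small, a log2 fold change of -0.23 (limma adjusted p 0.0296). It missed the threshold when any of 4 libraries was left out: IPI-9119 replicate 2 (-0.23, adjusted p 0.0622), IPI-9119 replicate 3 (-0.21, 0.0748), DMSO replicate 2 (-0.20, 0.104) and DMSO replicate 3 (-0.23, 0.0683). It also did so with quantile scaling (-0.11, 0.264) or DESeq2 (-0.23, 0.0645). ZNF350, a partner of BRCA1, ZNF224, a repressor of aldolase A, ZNF382 and ZNF649, both described as repressors of growth signalling, had log2 fold changes of -0.14, -0.29, -0.16 and -0.03 (adjusted p 0.35, 0.277, 0.43 and 0.889), with overlapping libraries. Of these, ZNF350 passed with the length and GC correction (-0.36, adjusted p 0.0182).

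The most precisely measured members that did not pass were ZNF561, ZNF260 and ZNF468. ZNF561 gave 1246.1, 1275.1 and 1220.8 normalised counts in IPI-9119 libraries and 1187.0, 1225.7 and 1263.8 in DMSO libraries, a log2 fold difference of 0.03 (SE 0.057, limma adjusted p 0.711). ZNF260 and ZNF468 had log2 fold changes of -0.02 (SE 0.059) and -0.04 (SE 0.063). The groups overlapped for all 3 genes. With the length and GC correction ZNF260 passed (-0.23, adjusted p 0.00227), and ZNF561 and ZNF468 did not (-0.066 and -0.0076). At the low end, ZNF781 and ZNF676 had log2 fold changes of -0.46 (SE 0.42) and -0.94 (SE 0.47), so differences of that size were not distinguishable from the spread between libraries. The ZNF676 difference passed without DMSO replicate 3 (-1.26, adjusted p 0.0497) or IPI-9119 replicate 2 (-1.33, adjusted p 0.032), and with the length and GC correction (-1.21, adjusted p 0.0314).

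By position, 201 members fell into 10 clusters, split where neighbouring ZNF genes start over 500 kb apart, and 9 lay outside. Clusters are described in order from the short arm end. Beside their counts, 31.4% of all genes tested fell and 31.3% rose. The first, from ZNF554 to ZNF77 (2.82 to 2.94 Mb), was the only one with a median above 0 (0.59). Of its 4 members ZNF554 and ZNF57 rose and 0 fell, and ZNF555 and ZNF77 had log2 fold changes of 0.68 and 0.35 without passing (adjusted p 0.0899 and 0.0896). ZNF57 gave 262.5, 292.3 and 267.3 normalised counts in IPI-9119 libraries and 178.8, 206.6 and 199.3 in DMSO libraries. In the cluster from ZNF414 to ZNF846 (8.51 to 9.79 Mb) 6 of 11 members fell and 0 rose, with a median of -0.21.

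The cluster from ZNF653 to ZNF791 (11.5 to 12.6 Mb) lay nearest to no change, with a median of -0.039. Of its 18 members 3 fell and 2 rose, ZNF823 and ZNF563. ZNF823 gave 167.6, 229.1 and 163.9 normalised counts in IPI-9119 libraries and 122.5, 148.1 and 106.5 in DMSO libraries. ZNF563 rose by 0.62 on the log2 scale (adjusted p 0.0228), which missed the threshold when DMSO replicate 2 (0.51, adjusted p 0.0851) or IPI-9119 replicate 3 (0.60, adjusted p 0.0583) was left out. It also missed it with DESeq2 (0.63, adjusted p 0.0754) and the length and GC correction (0.38, adjusted p 0.149). ZNF627, its most abundant member, lay close to no change (0.06, limma adjusted p 0.484), while the correction for length and GC gave -0.18 (adjusted p 0.0251). After that correction 7 of the 18 fell and 0 rose, beside 34.1% and 30.7% of all genes in the same fit.

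The cluster from ZNF101 to ZNF254 (19.7 to 24.1 Mb), whose 27 members all had a KRAB match, held 7 of the 15 increases, among them ZNF257, ZNF738, ZNF93, ZNF85, ZNF14 and ZNF675, next to 11 decreases. ZNF708 fell furthest there, to 157.1, 128.7 and 174.9 normalised counts in IPI-9119 libraries, against 340.5, 330.2 and 284.7 in DMSO libraries (log2 fold change -1.05, adjusted p 6.96e-06). ZNF257 rose furthest, with 62.2, 72.0 and 56.1 in IPI-9119 libraries, against 41.1, 37.7 and 25.7 in DMSO libraries (log2 fold change 0.86, adjusted p 0.00422). These genes lie within 1 Mb of each other, so opposite changes were found among near neighbours. The cluster median was -0.22. After the length and GC correction 16 members fell and 3 rose, beside 34.1% and 30.7% of all genes.

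Decreases outnumbered increases in each of the other clusters. In the cluster from ZNF302 to ZNF792 (34.7 to 35.0 Mb) 2 of 5 members fell, among them ZNF181 (-0.40, adjusted p 0.000724). In that from ZNF565 to ZNF573 (36.2 to 37.8 Mb) 11 of 24 fell and 2 rose, and 22 had a log2 fold change below 0. ZNF793 fell furthest there, to 18.98, 21.8 and 19.8 normalised counts in IPI-9119 libraries, against 54.5, 100.0 and 52.4 in DMSO libraries (log2 fold change -1.66, adjusted p 9.16e-05). Its exons overlap the antisense gene ZNF793-AS1, so its reads and those of that gene cannot be told apart without strand.

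In the cluster from ZNF575 to ZNF180 (43.5 to 44.5 Mb) 8 of 21 members fell, 38.1% against 31.4% of all genes, and 0 rose. ZNF234 fell furthest in it, to 49.5, 50.2 and 50.6 normalised counts in IPI-9119 libraries, against 86.7, 100.0 and 85.4 in DMSO libraries (log2 fold change -0.84, adjusted p 0.000564), and ZNF428, the most abundant, fell by 0.51 (adjusted p 0.00399). In the cluster from ZNF175 to ZNF331 (51.6 to 53.6 Mb) 15 of 37 fell, 40.5%, ZNF836 furthest (-0.97, adjusted p 0.004). Only ZNF765 rose there (0.24, adjusted p 0.0451), a call lost without each library but IPI-9119 replicate 1, with values of 0.19 to 0.27 and adjusted p of 0.062 to 0.155. DESeq2 did not call it either (adjusted p 0.0787), and the length and GC correction gave 0.56 (adjusted p 3.11e-05). More than 5% of the 50-base stretches of ZNF765 occur in another gene, so its reads could be shared.

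The cluster from ZNF628 to ZNF835 (55.5 to 56.7 Mb) had the lowest median, -0.71, and 10 of its 15 members fell and 0 rose. It holds ZNF628, ZNF579 and ZNF865, and 9 of its members had no KRAB match. The median GC content of its transcripts was 59.6%, against 42.2% over all members. After the length and GC correction the cluster median was -0.68, with 10 members lower and 1 higher (34.1% and 30.7% of all genes). ZNF787 there gave 361.6, 342.5 and 373.9 normalised counts in IPI-9119 libraries and 522.9, 595.4 and 526.3 in DMSO libraries (log2 fold change -0.61, adjusted p 2.66e-05), which the length and GC correction turned to 0.22 (adjusted p 0.029). In the last cluster, from ZNF264 to ZNF446 (57.2 to 58.5 Mb), 20 of 39 members fell and ZNF584 rose (0.39, adjusted p 0.00353, and 0.23 with the length and GC correction), with a median of -0.39. Outside the clusters 5 of 9 members fell and 0 rose. No test of a difference between clusters was made.

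**Figure D2:**
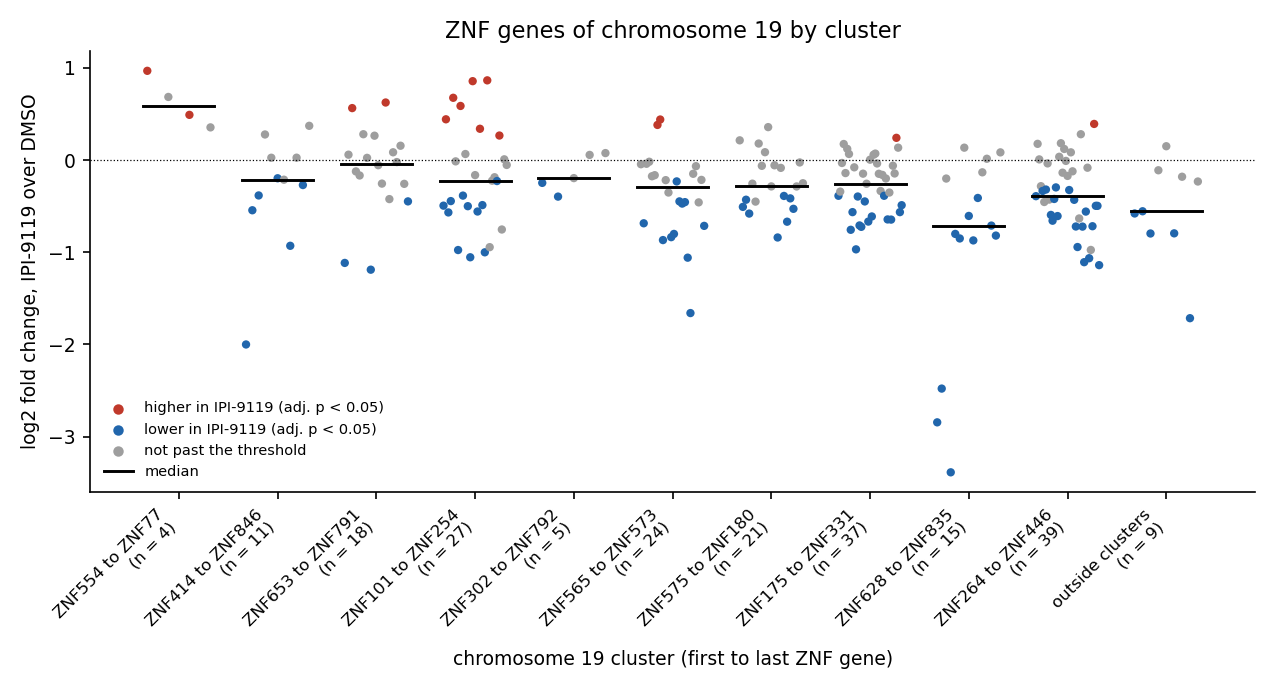
log2 fold change of each member, IPI-9119 over DMSO, in the 10 clusters in order along chromosome 19 and outside them. Red points rose, blue points fell (adjusted p under 0.05), grey points did not pass and bars are medians. The bar is above 0 (0.59) only for the 4 members from ZNF554 to ZNF77, and lowest (-0.71) for the 15 from ZNF628 to ZNF835.

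A KRAB match was found in 181 members, with a median log2 fold change of -0.23. Of these 74 fell and 15 rose, beside 31.4% and 31.3% of all genes. Of the 29 members without a KRAB match 17 fell and 0 rose, with a median of -0.69. The groups also differed in GC content. Of the members without KRAB 18 had transcripts over 55% GC, among which 14 fell, with a median of -0.83. The other 11 had a median of -0.23 and 3 decreases, close to the -0.22 of the 179 KRAB members at or under 55% GC. Of the KRAB members 2, ZNF324 and ZNF446, were over 55% GC, and both fell, ZNF324 not past the test with the length and GC correction (-0.18, adjusted p 0.324). Most members over 55% GC thus had no KRAB match, and the parts of KRAB status and GC content were not tested. After the length and GC correction the medians were -0.38 with and -0.59 without a KRAB match. Without KRAB the corrected median was -0.65 for members over 55% GC, of which 13 fell and 1 rose. It was -0.30 for the 11 at lower GC, of which 6 fell, and -0.38 for the 179 KRAB members at or under 55% GC. Of all genes 34.1% fell and 30.7% rose after the correction.

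**Figure D3:**
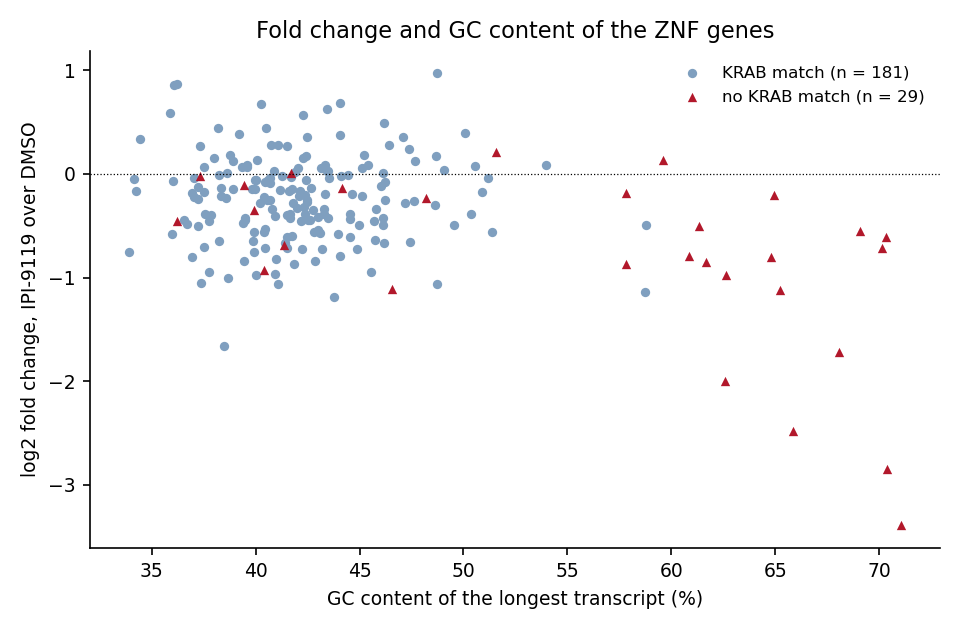
log2 fold change, IPI-9119 over DMSO, of each member against the GC content of its longest transcript in percent. Circles are the 181 members with a KRAB match and triangles the 29 without. The triangles over 55% GC have a median of -0.83, and those at lower GC lie among the circles, with a median of -0.23.

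Longer members had lower medians. The 70 members with the longest exonic sequence had a median log2 fold change of -0.39 and 40 decreases, the 70 shortest -0.18 and 23. Of all genes tested 31.4% fell. After the length and GC correction these medians were -0.39 and -0.36. Across the 210 members, Spearman's rho of the log2 fold change was -0.15 with exonic length, -0.14 with GC content, 0.13 with the mean level and 0.075 with the number of fingers, over genes that share the same libraries. The number of fingers ran from 0 to 36, with a median of 12, highest in ZNF208 (36) and ZNF91 (31).

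Several members could share reads with other genes. Exons of 68 members overlap a gene on the other strand and those of 68 a gene on the same strand. ZNF146, ZNF93, ZNF570, ZNF57, ZNF558, ZNF304 and ZNF428 are among the first and ZNF653, ZNF431 and ZNF836 among the second, and their values carry that uncertainty. The 93 members with no such overlap had 42 decreases, 11 increases and a median of -0.25, and the 117 with one had 49, 4 and -0.27. Over all genes 31.4% fell and 31.3% rose. More than 5% of the 50-base stretches of 28 members occur in another gene, and of these 13 fell and 1, ZNF765, rose, with a median of -0.31. For pairs such as ZNF443 with ZNF799 and ZNF417 with ZNF587 the counting could split reads, so their single values are uncertain.

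Other groups gave these values in the same fit, in which 31.4% of all genes fell and 31.3% rose. Of 201 ZNF genes on other chromosomes 92 fell and 25 rose, with a median of -0.23. Of 666 other protein-coding genes of chromosome 19, 332 fell and 138 rose, with a median of -0.27. After the length and GC correction these medians were -0.32 and -0.067, against -0.39 for the chromosome 19 ZNF genes. The 16 other zinc finger genes of the chromosome had 10 decreases and 2 increases, with a median of -0.42. They include PEG3, an imprinted gene (-0.96), ZSCAN18 (-1.60), ZNF585A (0.43) and ZFP36, an RNA-binding protein with fingers of another kind (-1.18), which were named after their values were seen. No test of a difference between these groups and the members was made.

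**Figure D4:**
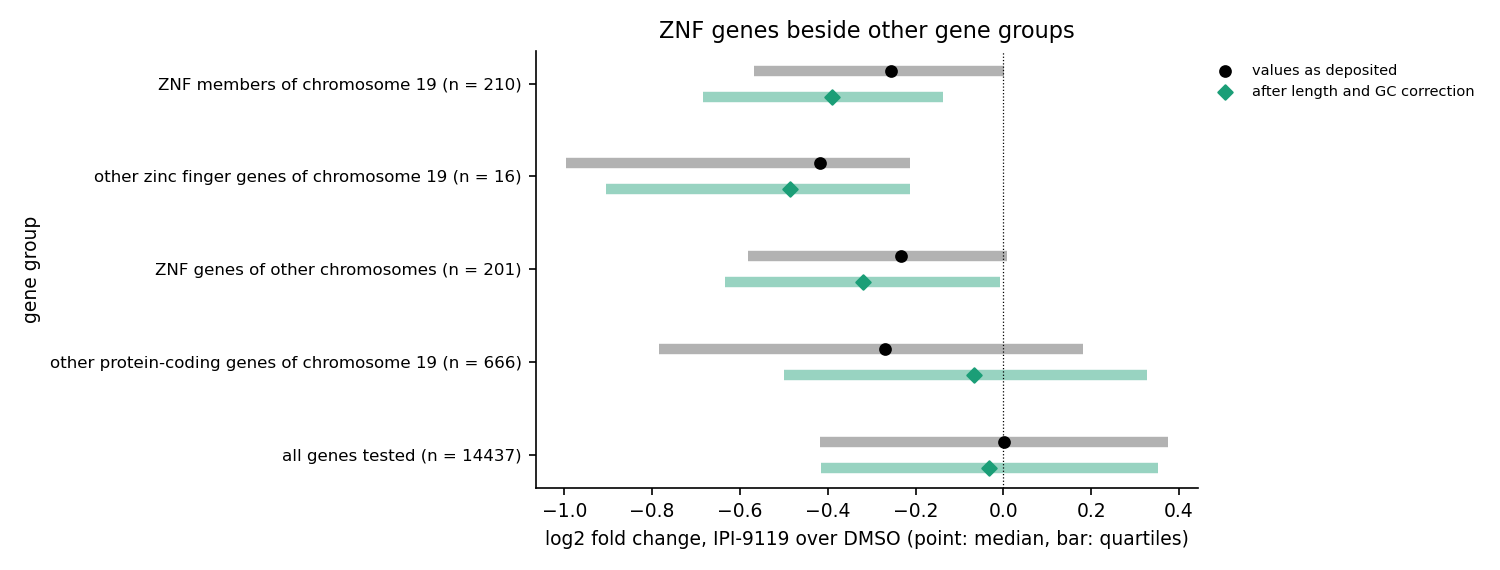
Median (points) and quartiles (bars) of the log2 fold change, IPI-9119 over DMSO, for the members, 3 other gene groups and all genes tested, from the values as deposited (black) and after the length and GC correction (green). The median of the members is -0.26 and -0.39, that of other protein-coding genes of the chromosome -0.27 and -0.067, and that of all genes lies near 0 in both.

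In the promoters, an ETS motif was found in 45.9% of the 185 members with a window, against 10.3% of 35116 promoters and 19.9% of the 10132 promoters of genes tested. By call it was in 45 of 84 members that fell, 8 of 14 that rose and 32 of 87 that did not pass. A CCAAT box was in 50.8% of the members, against 34.6% of all promoters and 37.0% of those tested, and in 36 of the 84 that fell, 11 of the 14 that rose and 47 of the 87 others. The windows of ZNF554 and ZNF93 printed above, both of genes that rose, hold a pair of CCAAT boxes each, and those of ZNF865 and ZNF579, of genes that fell, hold none. Few windows are printed, and a link between a motif and the direction of change was not tested. The GC box was in 67.6% of members (44.95% of all, 70.6% of tested) and the TATA box TATAAA in 2.16% (11.5% and 5.14%).

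The sterol regulatory element TCACNCCAC was in 4.86% of members, against 1.13% of all promoters and 1.14% of those tested, in 2 of the 84 members that fell, 1 of the 14 that rose and 6 of the 87 that did not pass. The CRE TGACGTCA, the motifs of NRF1 and YY1 and the CG-rich palindrome bound by BANP were each in 1.08% to 3.78% of members and 0.424% to 1.85% of all promoters. Among tested genes the CRE was in 3.27%, NRF1 in 2.46%, YY1 in 2.10% and the palindrome in 0.938%, with 1.08% of members for YY1 and for the palindrome. The median number of CpG pairs was 21 in members, 14 over all promoters and 27 in those of tested genes. Both strands were searched, and a match describes letters only.

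A list of 18 genes held the KRAB corepressor machinery and other silencing factors, not all of them recruited by KRAB proteins. Of these 7 fell and 4 rose, 38.9% and 22.2%, beside 31.4% and 31.3% of all genes. TRIM28, the corepressor that KRAB binds, gave 2996, 3057 and 3059 normalised counts in IPI-9119 libraries, against 4462, 4583 and 4518 in DMSO libraries. The groups were far apart relative to their spread, with a log2 fold difference of -0.57 (SE 0.044, limma adjusted p 7.02e-08). The length and GC correction gave -0.20. SETDB1, the methyltransferase, gave 548, 584 and 531 in IPI-9119 libraries and 605, 577 and 540 in DMSO libraries, which overlapped (-0.05, SE 0.078, adjusted p 0.591). Its partners ATF7IP and RESF1, listed as KIAA1551, fell by 0.37 and 1.21 on the log2 scale.

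CHD3, a remodeller of the NuRD complex that binds TRIM28, fell furthest, to 498, 605 and 617 normalised counts in IPI-9119 libraries, against 3155, 3811 and 3120 in DMSO libraries (log2 fold change -2.55, SE 0.094, adjusted p 3.33e-10). The deacetylases HDAC1 and HDAC2 had log2 fold changes of 0.01 (SE 0.046) and -0.00044 (SE 0.045). Within the HUSH silencing complex the members went different ways. MPHOSPH8, its chromatin reader, gave 290, 347 and 355 in IPI-9119 libraries, against 1308, 1361 and 1047 in DMSO libraries (-1.90, adjusted p 3.18e-09), PPHLN1 rose by 0.19 and TASOR, listed as FAM208A, had 0.07 (adjusted p 0.385). MORC2, an ATPase that works with HUSH, fell by 0.85.

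ATRX, a remodeller that deposits histone H3.3 with DAXX, fell to 719, 833 and 934 normalised counts in IPI-9119 libraries, against 1999, 2280 and 1989 in DMSO libraries (-1.34, adjusted p 3.52e-08), while DAXX rose by 0.31 (adjusted p 0.000628). Of the heterochromatin proteins CBX1 rose by 0.32 (adjusted p 6.07e-05) and CBX3 and CBX5 had 0.06 and -0.04 without passing. SUMO2, the modifier attached to TRIM28, rose to 7428, 6938 and 6762 normalised counts in IPI-9119 libraries, against 5571, 5148 and 5151 in DMSO libraries (0.41, adjusted p 7.78e-06). SMARCAD1, a remodeller, had -0.10 without passing. The length and GC correction gave 10 decreases and 4 increases in this list, beside 34.1% and 30.7% of all genes. HDAC1 (-0.17, adjusted p 0.00348), CBX3 (-0.19, adjusted p 0.00222) and SMARCAD1 (-0.30, adjusted p 0.00291) passed with it, and SUMO2, CBX1 and DAXX had 0.18, 0.13 and 0.19.

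**Figure D5:**
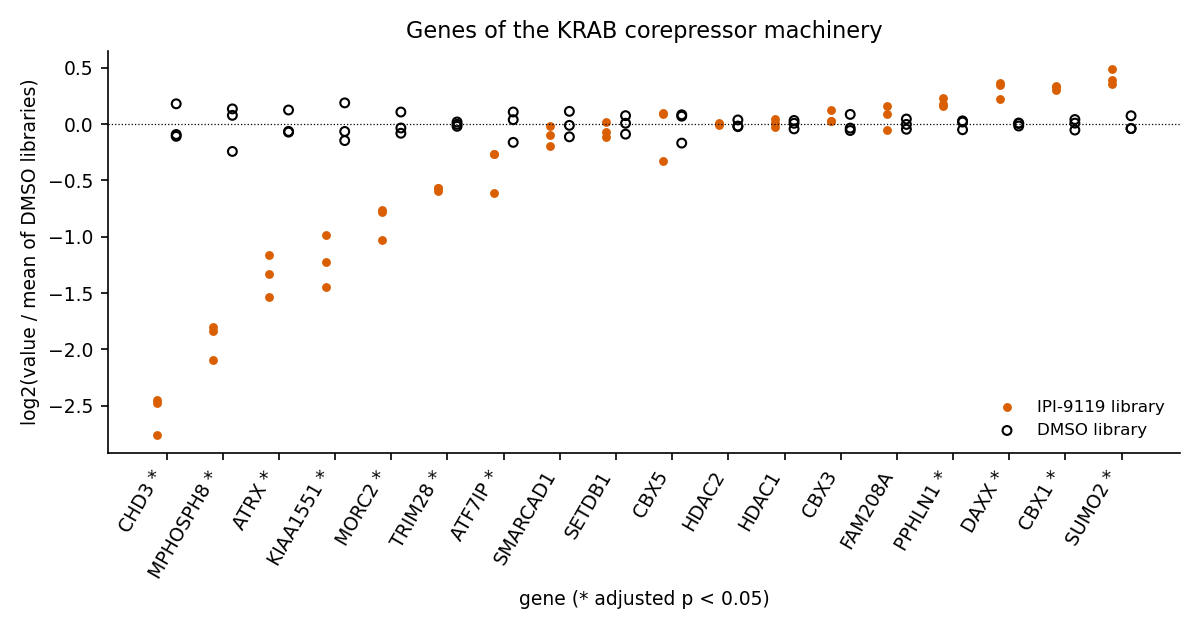
log2 of the value of each library over the mean of the DMSO libraries, for the 18 genes listed as KRAB corepressor machinery and other silencing factors. Genes are ordered by fold change. Filled points are IPI-9119 and open points DMSO libraries, and stars mark an adjusted p under 0.05. CHD3 is lowest (-2.55) and SUMO2 highest (0.41), and for the 7 unmarked genes the groups overlap.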

How the data were processed

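Polyadenylated RNA of 3 IPI-9119 and 3 DMSO libraries was measured by sequencing. What the authors deposited is a signal: reads per gene scaled by 1 size factor per library, as the values show. The submitters' processing notes name the build GRCh38 and the tools STAR 2.5.2b, Trimmomatic 0.36, Subread 1.5.2, featureCounts and DESeq2, without their roles. The annotation release and strand setting are not given in the sources used here. Whole reads were recovered for 100% of values within 0.01 read. Libraries of the same treatment were further apart than counting error allows (2.29 to 9.59 times, as chi-square over its degrees of freedom).

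Groups were compared with limma 3.58.1 (R 4.3.3; trend, robust) on log2(value + 1) over all 14437 genes with a mean of at least 10. This scale understates the fold changes of low genes. Tests were two-sided, with Benjamini-Hochberg adjustment over all genes. edgeR 4.0.16 (quasi-likelihood) and DESeq2 1.42.0 on recovered reads, pseudocounts of 0.5 and 8, other filters and scalings, a replicate block, leaving out each library, and a spline correction (4 degrees of freedom each, with interaction) for log2 exonic length and GC percent were alternatives. Length and GC were known for 99.6% of genes. The fits were tested on simulated data with 100 genes changed 2-fold and 100 changed 1.5-fold. There limma found 100 and 83 of them, with 14 false calls over 14334 genes. Far fewer genes were changed there than the 62.8% that passed here, so the simulation did not cover a difference this broad.

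Positions, lengths and GC content came from GENCODE 29. Fingers (C, 2 to 4 residues, C, 12 residues, H, 3 to 5 residues, H) and KRAB matches (pyhmmer 0.12.3 phmmer, E under 1e-05, to the first 100 residues of ZNF10) were counted in proteins translated from GENCODE transcripts, not RefSeq as planned. Genes named are the 8 largest decreases and 8 largest increases among called members with a mean of at least 50 and non-overlapping groups, each cluster's most abundant member and largest called rise and fall, the 3 members not past the test with the smallest SE, 16 members with a studied role, and the 2 nearest to the minimum. Not every gene so chosen is printed. Members and lists were chosen with earlier results of these data known. A planned result of the corepressor list is not reported here.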

Additional observations from a re-analysis of the deposited data

How the results depend on the processing

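The number of members that fell, 91, stayed within 1.5 times under every alternative run, with 75 to 86 when 1 library was left out. The number that rose, 15, was 12 to 15 without 1 library and 8 after the length and GC correction. The median log2 fold change was -0.26. It was -0.39 after that correction, -0.19 with quantile scaling, which moved the median of all genes to 0.021, and -0.31 to -0.25 without 1 library, lowest without DMSO replicate 1. The cause was not tested. The counts of corepressor genes that fell and rose, 7 and 4, were the same without any 1 library, and 10 and 4 after the length and GC correction. With that correction 34.1% of all genes fell and 30.7% rose. Splitting clusters at 1 Mb gave 9 in place of 10. Replicate numbers did not pair the libraries (correlations of deviations 0.141, 0.0634 and 0.00443), and with a replicate block 94 members fell and 15 rose. Of 827 recomputed values of 49 named genes, 783 kept direction and call, 28 lost the call, 6 gained it and 10 changed sign. The sign changed after the length and GC correction for ZNF561 (-0.066), ZNF627 (-0.18) and ZNF787 (0.22), and with quantile scaling for ZNF260 (0.017) and ZNF649 (0.039). Without 1 library ZNF260 ran from -0.043 to 0.0041, ZNF382 from -0.28 to 0.0034 and ZNF649 from -0.24 to 0.12. Of the called members 27 lost the call without at least 1 library, and 69 that fell and 10 that rose kept it without each. edgeR called 90 of the 91 decreases and all 15 increases. For the 30 members with a mean under 50, depth limits the size of change that can be detected.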
